A study of Mus musculus with 8 samples.

Results

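Genomic imprinting leaves a gene active on only the maternal or only the paternal chromosome, as set by DNA methylation that the egg or the sperm lays down at control regions. Imprinted genes often lie in clusters, and many of the paternally expressed ones promote growth of the foetus, whereas several maternally expressed ones restrain it. Many are turned down after birth, and some act in fat, where *Dlk1* and *Ndn* hold back the differentiation of preadipocytes, *Mest* marks the growth of white fat and *Grb10* restrains insulin signalling. The genes described here are 35 imprinted mouse genes that include *Nap1l5*, a paternally expressed member of the nucleosome assembly protein family. The list was chosen by a measured value, since the higher *Nap1l5* counts in brown adipose tissue (BAT) of the libraries labelled *Adipo-HuR-/-* prompted it, and the other members were added because they are imprinted. Of the 35 genes, 28 were among the 33641 genes counted in each library. The remaining 7, the non-coding RNAs *H19*, *Meg3*, *Rian*, *Mirg*, *Kcnq1ot1*, *Airn* and *Peg13*, were not analysed here.

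The study deleted *Elavl1*, which encodes the RNA-binding protein HuR, in adipocytes of mice and sequenced poly(A) RNA from interscapular BAT. All animals were of strain C57BL/6 and 28 weeks old. The 3 libraries labelled wild-type (A7, A8 and A12) are by label from control littermates, a class that in the study takes in *wt/wt-cre+*, *flox/flox-cre-* and *wt/flox-cre-* mice, and the 5 labelled HuR knockout (A24, A25, A26, A29 and A31) from *Adipo-HuR-/-* mice. The deletion was driven by *Adipoq-Cre*, so vessels, stroma, nerve and immune cells of the tissue keep the gene. The study's text gives the group sizes in the reverse order, and libraries were grouped by their labels. Totals lay between 17558090 counts in A25 and 67498055 in A26, and A24, with 18264754, was the next lowest; the other 6 had at least 50673814.

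*Elavl1* itself was measured at 50.6, 48.0 and 49.2 CPM (counts scaled to the library total, normalised by TMM) in control and 61.9, 47.3, 43.4, 61.3 and 61.2 under the other label, with libraries here and below in the order A7, A8, A12 and then A24, A25, A26, A29, A31. The knockout label did not come with less *Elavl1*: 3 of these 5 libraries exceeded every control library and 2 lay under all of them. The log2 fold change was 0.16 (standard error, SE, 0.162; adjusted p = 0.667 in edgeR's quasi-likelihood test; 0.11 to 0.46 over the 19 alternative fits), so the gene total does not check the labels, and each direction below rests on them. The study, from the same libraries, also reports more genes lower than higher in *Adipo-HuR-/-* BAT. Calcium cycling genes that it names as reduced include *Atp2a1* and *Ryr1*. Under the labels used here, 69 genes were called lower and 36 higher, but 25 lower and 96 higher when scaled by totals. Summed muscle markers were also lower on average under the knockout label (130 against 2234 CPM), with overlap. None of these tests the genotype of a library. A positive log2 fold change stands for a higher level in the libraries labelled *Adipo-HuR-/-*.

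The tissue carried the markers of brown fat in every library. The 9 brown adipocyte markers, with *Fabp4* the most abundant, summed to 23173 ± 8159 CPM (SD, n = 3) in the control libraries and 20879 ± 4685 (SD, n = 5) in those labelled *Adipo-HuR-/-*, and the groups overlapped (p = 0.643, two-sided exact permutation test). Skeletal muscle transcripts were unevenly present. The sum of 20 muscle markers, with *Myh4* the most abundant, was 4073, 2568 and 60.2 CPM in control and 54.3, 36.01, 47.4, 50.4 and 461 CPM under the knockout label (means 2234 and 130 CPM, overlapping, p = 0.0714, exact permutation test). A7, A8 and A31 were thus the libraries with muscle RNA, and in each of the other 5 libraries between 2 and 8 of the 20 markers were at 0. Summed markers of stroma and preadipocytes (exact permutation p = 0.679), of endothelial and mural cells (p = 0.893, exact), of leukocytes (p = 0.714, exact) and of nerve (p = 0.321, exact) overlapped between the groups. In bulk tissue, fewer cells of a type and less RNA per cell cannot be told apart.

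*Nap1l5*, a histone chaperone best known from brain, was at 2.77, 2.76 and 4.74 CPM in the 3 control libraries, against 19.01, 12.6, 15.4, 16.8 and 12.6 CPM in the other 5. All 5 libraries labelled *Adipo-HuR-/-* lay above all 3 control libraries, and the lowest of the 5 was 2.65 times the highest control. The means were 3.42 ± 1.14 CPM (SD, n = 3) and 15.3 ± 2.76 (SD, n = 5), which is 2.16 on the log2 scale (SE 0.250). As this contrast chose the list, it is given without a test. By fold change *Nap1l5* stood 96th of the 14851 genes tested. For the other genes the threshold was an adjusted p of at most 0.05 and a fold change of at least 1.5. Of the 20 muscle markers, 3 were past the threshold, beside 0.707% of all genes tested. These were *Myl1*, without overlap, and *Myh7* and *Myl2*, whose groups overlapped. The sum of the muscle markers was high in A7, A8 and A31, and its part in the *Nap1l5* difference was not tested. With A7, A8 and A31 all left out the log2 fold change of *Nap1l5* was 1.75, against the single control library A12, and with the muscle score as a covariate it was 1.82. Without A24 and A25, the shallowest libraries, it was 2.12.

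Per length of transcript (counts divided by transcript length and scaled to the same sum in each library), *Nap1l5* exceeded 40.0% of the genes tested in the control libraries and 67.3% in those labelled *Adipo-HuR-/-*. Among the 28 members with counts it was the 13th by mean level per length in control and the 4th under the knockout label. Nearly all of its counts belonged to a transcript of 1 exon and 1844 bases, which held 94.3% ± 8.60 (SD, n = 3) of them in the control libraries and 97.2% ± 1.39 (SD, n = 5) in the others.

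**Figure D1:**
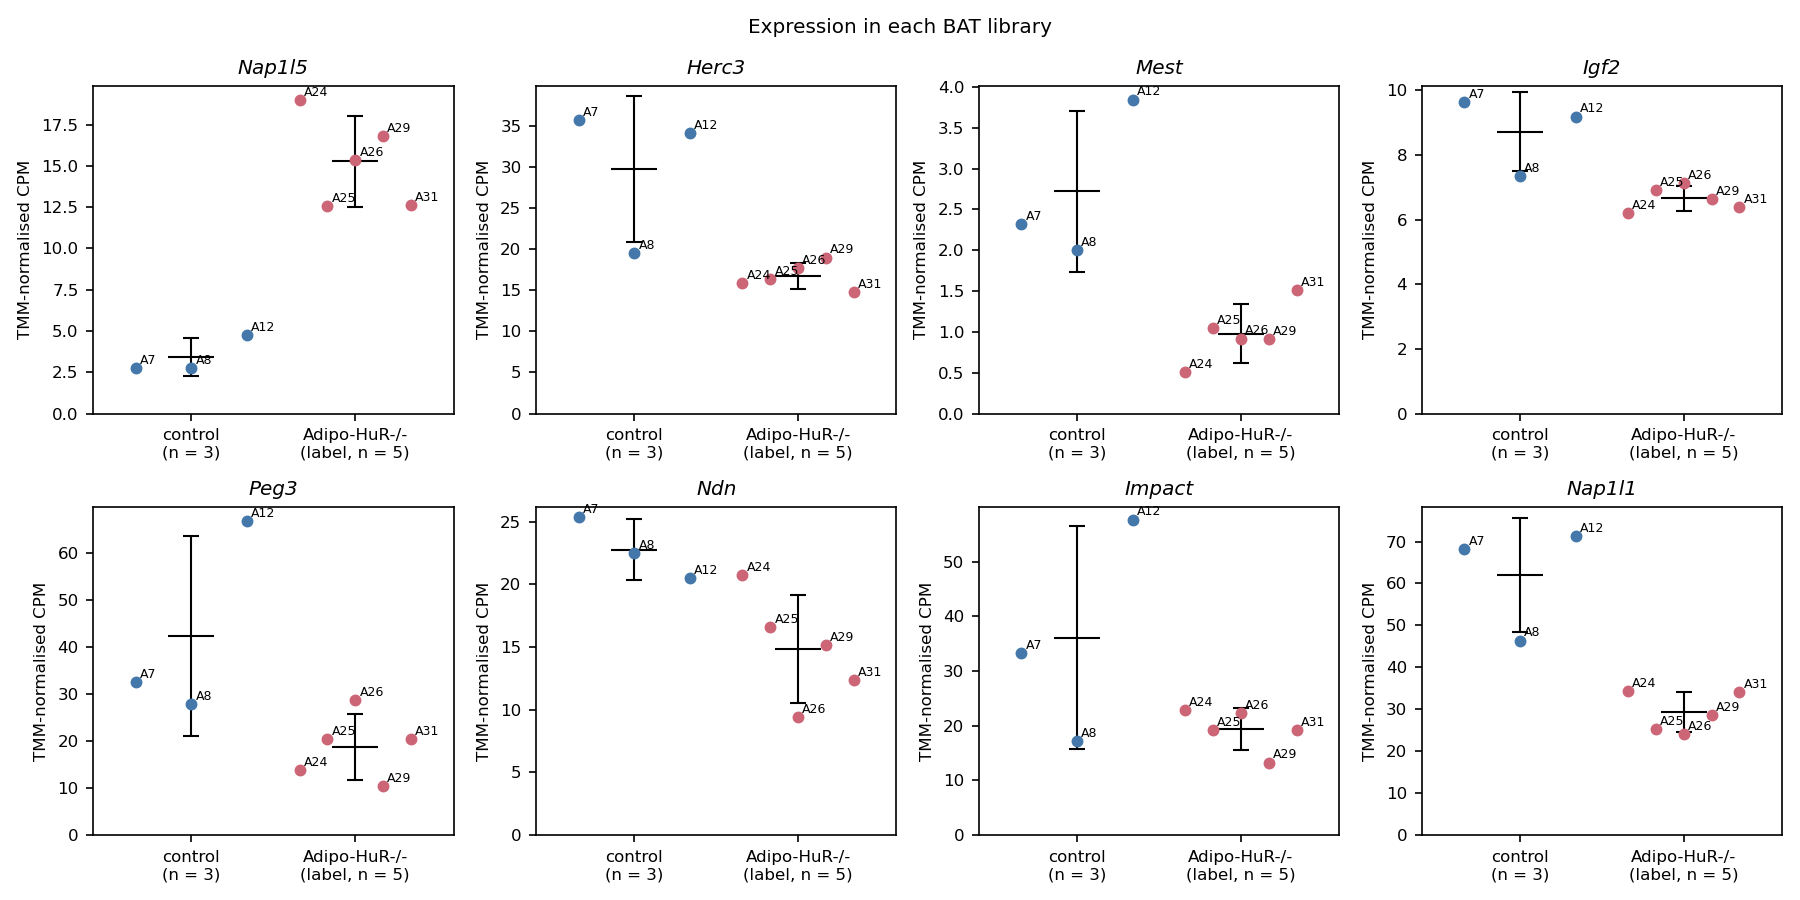
TMM-normalised CPM (vertical axes, each from 0) of 8 genes in the 3 control libraries and the 5 libraries labelled Adipo-HuR-/-, with 1 point per library, the mean (line) and the SD (bars). Nap1l5 lay between 12.6 and 19.01 CPM in the labelled libraries and between 2.76 and 4.74 in control, while Herc3, Mest, Igf2 and Nap1l1 lay lower in every labelled library than in any control library, and Peg3, Ndn and Impact overlapped.

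*Nap1l5* lies at chr6:58905233-58907076 on the minus strand of GRCm38, inside intron 22 of the 25-exon transcript of *Herc3*, which runs on the plus strand. *Herc3* encodes a HECT-type ubiquitin ligase and is the host gene of *Nap1l5*. That intron spans 58894625 to 58916411, and no exon base of *Nap1l5* is shared with an annotated *Herc3* transcript. Whether the counting used strand is not given in the sources used here, so unspliced *Herc3* RNA and *Nap1l5* reads cannot be told apart where they overlap.

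**Figure D2:**
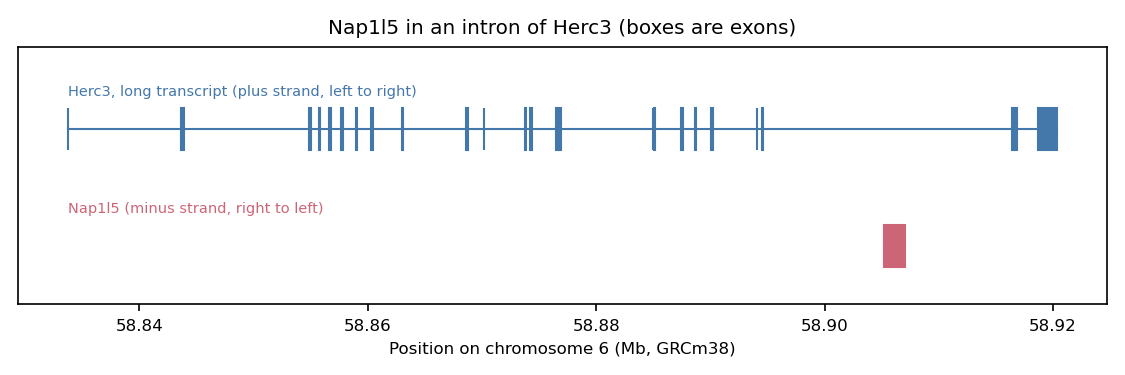
Map of the locus by position on chromosome 6 (GRCm38, Mb), with exons as boxes and introns as lines. Nap1l5, on the minus strand, lies in intron 22 of the 25-exon Herc3 transcript, with 3 Herc3 exons beyond it.

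*Herc3* was at 35.6, 19.5, 34.1 CPM (control) and 15.9, 16.4, 17.7, 18.96, 14.8 CPM (labelled knockout). Here the direction was opposite to that of *Nap1l5*, with each of the 5 libraries labelled *Adipo-HuR-/-* below each control library, although A8 and A29 nearly met. With a log2 fold change of -0.83 (SE 0.196) it did not pass the threshold (adjusted p = 0.0810, edgeR), and the adjusted p ranged from 0.00809 to 0.235 over the alternative fits, being 0.0166 without A8. The ratio of *Nap1l5* to *Herc3*, each per length, averaged 0.256 in the control libraries and 1.77 in those labelled *Adipo-HuR-/-*. Higher *Nap1l5* counts under that label chose the list, so a higher ratio largely follows from the choice and is only a description. Of the 12 *Herc3* transcripts with counts, the one that runs past *Nap1l5* to 58920398 held most. It was estimated at 28.0 ± 8.25 CPM (SD, n = 3) in control and 15.4 ± 1.65 CPM (SD, n = 5) in the other libraries, and its share of the gene was 94.0% ± 2.98 (SD, n = 3) against 92.1% ± 3.91 (SD, n = 5; two-sided exact permutation p = 0.500). A transcript of 1 exon that ends at 58904509, before *Nap1l5*, held 1.02% ± 1.13 (SD, n = 3) and 2.69% ± 1.703 (SD, n = 5; exact permutation p = 0.143). With 3 libraries against 5 there are 56 splits, and the smallest two-sided p is 0.0357.

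*Nap1l5* belongs to a class of imprinted retrogenes, copies of X-linked genes that landed in an intron of a host gene. A pair of other such loci was looked at after their values had been seen. *Mcts2*, a translation factor gene in an intron of *H13*, averaged 15.2 CPM in control and 18.4 under the knockout label, or 0.28 as log2 fold change (adjusted p = 0.563, edgeR; 0.06 without A7 and 0.56 without A8). Its host *H13*, which encodes signal peptide peptidase, had a log2 fold change of 0.32 (adjusted p = 0.565, edgeR; 0.06 without A7 and 0.65 without A8), and its 5 transcripts compared had exact permutation p from 0.0714 to 0.643. *Zrsr1*, a splicing factor gene inside *Commd1*, averaged 29.3 CPM and 23.0 CPM, a log2 fold change of -0.35 (adjusted p = 0.274, edgeR). The *Zrsr1* value was -0.20 without A8 and -0.09 when scaled by totals. *Commd1* had a log2 fold change of -0.08 (adjusted p = 0.893, edgeR), with either sign among the alternative fits (-0.39 to 0.28). All 4 genes overlapped between the groups and none passed the threshold.

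A library of this depth leaves low genes out of the test. Of the 28 members with counts, 25 passed edgeR's filter, and *Magel2*, *Phlda2* and *Rtl1* did not. Leaving out *Nap1l5*, which chose the list, 0 of 24 were past the threshold in edgeR's test, while 0.707% of the 14851 genes tested were past it (0.242% higher and 0.465% lower). Without A12 it was 1, *Slc38a4* (1.24% of all genes in that fit). The 36 higher and 69 lower calls among all genes (34.3% higher) became 96 and 25 (79.3% higher) when libraries were scaled by their totals alone, which shifted the median over all genes from 0.00 to 0.23. At an unadjusted p under 0.05, 7 of the 24 other members were below control and none above, beside 9.41% of all genes tested below control at that limit and 7.64% above. These were *Mest*, *Peg3*, *Slc38a4*, *Impact*, *Ndn*, *Igf2* and *Snrpn*, all expressed from the paternal allele. The count depended on the processing, with 3 below and 2 above control when scaled by totals (3.30% and 16.8% of all genes in that fit), 3 below and 3 above without A7 (7.60% and 7.05%), 4 below and 1 above without A12 (7.33% and 5.24%), 4 below and 0 above without A31 (7.24% and 6.22%), and 3 below and 0 above with the muscle covariate (6.05% and 5.74%). DESeq2's Wald test and edgeR's likelihood ratio test each placed 2 of the other members, *Mest* and *Peg3*, past the threshold, where the same tests placed 3.76% and 4.41% of all genes, and limma voom with quality weights placed none of them and 1.06% of all genes.

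With *Nap1l5* left out, groups without overlap were seen for 2 of 24, beside 11.5% of all genes tested. Both, *Mest* and *Igf2*, were lower (6.09% of all genes), and 0 were higher (5.37% of all genes). The median log2 fold change of the 24 members other than *Nap1l5* was -0.11, beside 0.00 over all genes tested. Leaving out 1 library moved it to -0.29 (A7), -0.26 (A8), -0.20 (A26), -0.22 (A29) or -0.06 (A12), and it was 0.09 with libraries scaled by totals. By parental allele, the 16 tested members expressed from the paternal chromosome, *Nap1l5* apart, had a median of -0.34 (-0.19 without A12, -0.12 when scaled by totals, -0.17 with the muscle covariate), with 10 below 0, and the 8 maternally expressed ones had a median of 0.00 (-0.12 to 0.20 over the alternative fits), with 4 below 0, where 7413 of all 14851 genes were below 0 and 7438 above. The median standard errors were 0.377 and 0.286, against 0.248 over all genes, so the typical member of either set was measured less precisely than the typical gene. Which allele the reads came from was not measured. The split uses the allele each gene is known for, in whichever tissue. *Ube3a*, for one, is counted as maternally expressed for its expression in neurons, so the split may not hold in brown fat.

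**Figure D3:**
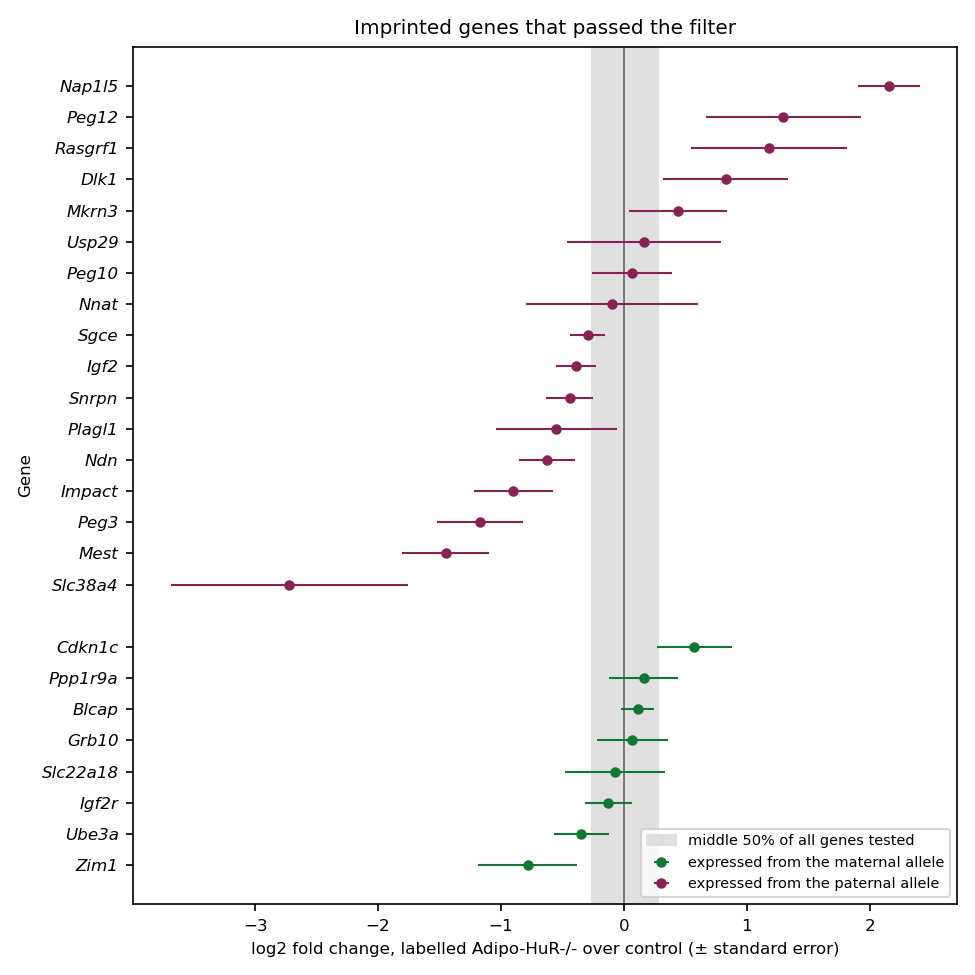
Log2 fold change, libraries labelled Adipo-HuR-/- over control (horizontal axis), with the standard error, of the 25 members that passed the filter, ordered within maternally and paternally expressed genes; the grey band holds the middle 50% of all genes tested. Nap1l5 (2.16) lies highest and Slc38a4 (-2.72) lowest. The genes listed as maternally expressed, whose allele in this tissue was not measured, lie between -0.78 (Zim1) and 0.57 (Cdkn1c).

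Among growth factors and their receptors, *Igf2* encodes the foetal insulin-like growth factor, and it was at 9.65, 7.34 and 9.19 CPM in control and 6.20, 6.93, 7.14, 6.63 and 6.39 CPM under the knockout label. The 5 libraries labelled *Adipo-HuR-/-* lay close together and just under the lowest control library, A8. It missed the threshold at a log2 fold change of -0.39 (SE 0.161; adjusted p = 0.253, edgeR), and it was -0.18 when libraries were scaled by totals. *Igf2r*, the receptor that removes IGF2 and is expressed from the maternal allele, was at 73.1, 58.9 and 82.7 CPM in the 3 control libraries, against 47.9, 64.8, 82.5, 63.3 and 69.4 CPM in the other 5. Its groups overlapped almost fully, with the lowest value in A24 and near-equal highest values in A12 and A26. The log2 fold change was -0.13 (SE 0.190; adjusted p = 0.785, edgeR), with -0.24 without A8, -0.22 without A26, -0.04 without A24, -0.01 without A12 and -0.36 without A7, A8 and A31, and it turned to 0.09 when libraries were scaled by totals.

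*Grb10* encodes an adaptor that binds the insulin and IGF1 receptors and dampens their signal. It was at 14.1, 6.53, 10.2 CPM (control) and 7.56, 13.9, 14.5, 9.40, 8.63 CPM (labelled knockout). Each group spread over about the same range, and the log2 fold change was 0.07 (SE 0.290; adjusted p = 0.929, edgeR), with either sign among the alternative fits, from -0.17 without A8 to 0.36 without A7. Of the *Grb10* transcripts the 5061-base one held 87.3% ± 5.32 (SD, n = 3) of the counts in control and 81.5% ± 10.9 (SD, n = 5) in the others (two-sided exact permutation p = 0.464).

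*Dlk1*, the membrane protein of preadipocytes, was at 0.988, 0.354 and 0.397 CPM in control and 1.47, 1.19, 0.622, 1.52 and 0.515 CPM under the knockout label. A24, A25 and A29 exceeded every control library, while A26 and A31 lay within the control range. Its log2 fold change, 0.83 (SE 0.510), was not past the threshold (adjusted p = 0.448, edgeR) and its level per length exceeded that of 17.7% of the genes tested. Without A7 the *Dlk1* log2 fold change was 1.46, without A7, A8 and A31 1.57, and in limma voom 0.52. *Rtl1*, a retrotransposon-derived gene of the same cluster that is needed for placental vessels, was at no more than 0.194 CPM (A7).

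*Mest*, a hydrolase gene named for its expression in mesoderm, was at 2.32, 2.0 and 3.84 CPM in the 3 control libraries, against 0.508, 1.04, 0.919, 0.909 and 1.51 CPM in the other 5. Every library labelled *Adipo-HuR-/-* lay below every control library, with A12 the highest and A24 the lowest. The means were 2.72 ± 0.987 CPM (SD, n = 3) and 0.979 ± 0.361 (SD, n = 5). Not past the threshold, it had a log2 fold change of -1.45 (SE 0.354; adjusted p = 0.0858, edgeR), and the adjusted p ranged from 0.00481 to 0.687 over the alternative fits. Muscle markers were high in A7, A8 and A31, and their part in this difference was not tested. The log2 fold change was -2.17 without those 3 libraries, against A12 alone, which had the most *Mest*. It was -0.58 when only the transcript with the most counts was used, and -1.11 without A12. The *Mest* counts were divided among 3 transcripts with a mean of at least 10 counts. The 791-base transcript had 0.681 ± 0.422 CPM (SD, n = 3) and 0.197 ± 0.0917 (SD, n = 5), without overlap (exact permutation p = 0.0357). The 2383-base transcript averaged 0.788 and 0.527 CPM (exact permutation p = 0.286), and the 2561-base transcript, which starts at the promoter known to be imprinted, 1.11 and 0.202 CPM (exact permutation p = 0.393), of which A12 alone had 2.67. Over *Mest*, *Herc3*, *H13* and *Grb10*, 14 transcripts were compared, and these p-values are not adjusted for their number.

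*Mest* shares its 3′ end with *Copg2*, a coat protein gene on the other strand, and the 2 genes overlap on chromosome 6. *Copg2* was at 31.8, 21.2, 27.0 CPM (control) and 17.2, 18.2, 17.7, 19.7, 16.4 CPM (labelled knockout). It too was lower in each library labelled *Adipo-HuR-/-* than in any control library, with a log2 fold change of -0.58 (SE 0.154; adjusted p = 0.102, edgeR; -0.37 when scaled by totals) that missed the threshold.

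Short stretches of sequence before the starts of *Nap1l5* and *Mest*, the members with the most separated groups, are shown because the zinc finger protein ZFP57, which keeps methylation at imprinted regions, binds the 6 bases TGCCGC where the CpG within them is methylated. Both strands were searched (GCGGCA on the other strand). In RefSeq promoters of GRCm38.p6, the 250 bases before the start held these letters in 8.68% of 32851 promoters of all genes, and in 5 of 35 promoters of the 23 members matched by symbol. These 5 belong to *Nap1l5*, which chose the list, to *Plagl1*, to *Zim1* and to *Mest*, whose 2 windows start 3 bases apart and hold the same stretch, with 2 matches in each. The median number of CpG was 6 over all promoters, 8 over those of the members and 10 for *Nap1l5*. The 130 bases nearest each start hold no annotated exon and are printed 5′ to 3′, with the 1 match within them in capitals (the other of *Mest* lies further from the start), for *Nap1l5* at chr6:58907127-58907256 on the minus strand and *Mest* at chr6:30737920-30738049 on the plus strand. Methylation and binding were not measured, and a match is a description of the letters.
Nap1l5: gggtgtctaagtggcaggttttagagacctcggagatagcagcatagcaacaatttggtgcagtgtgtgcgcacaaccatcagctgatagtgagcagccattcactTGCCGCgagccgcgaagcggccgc
Mest: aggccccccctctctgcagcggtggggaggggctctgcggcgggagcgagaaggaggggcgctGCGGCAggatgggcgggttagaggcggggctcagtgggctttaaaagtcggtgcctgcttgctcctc

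Among growth inhibitors, *Cdkn1c* encodes the cyclin-dependent kinase inhibitor p57. It was at 6.88, 18.1 and 14.4 CPM in control and 23.9, 14.1, 16.6, 24.9 and 18.1 CPM under the knockout label. A7 was the lowest, and A24 and A29 were the highest, while the other 5 libraries of both labels lay together. With a log2 fold change of 0.57 (SE 0.303) it did not pass the threshold (adjusted p = 0.371, edgeR), and it was 0.26 without A7 and 0.88 without A8. *Plagl1*, which encodes a zinc finger factor that can halt the cell cycle, was at 0.372, 0.430 and 0.836 CPM in the 3 control libraries, against 0.113, 0.237, 0.4001, 0.493 and 0.515 CPM in the other 5. A12 was the highest and A24 and A25 the lowest, with overlap elsewhere (log2 fold change -0.55, SE 0.491, adjusted p = 0.619, edgeR; -0.10 without A12, -0.22 without A24 and A25, -0.33 when scaled by totals and -1.33 without A7, A8 and A31). *Phlda2*, a brake on placental growth, had no counts in 6 libraries, 0.0593 CPM in A26 and 0.182 CPM in A31. *Slc22a18*, a transporter gene of the *Cdkn1c* cluster, ranged from 0.190 CPM in A25 to 0.311 in A26 (log2 fold change -0.08, adjusted p = 0.978, edgeR; -0.23 to 0.20 over the alternative fits).

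In the *Peg3* cluster, *Peg3* encodes a zinc finger protein that acts in maternal behaviour and body fat. It was at 32.4, 27.8, 66.8 CPM (control) and 13.8, 20.4, 28.7, 10.4, 20.4 CPM (labelled knockout). A12 stood far above the rest, and A26 alone of the libraries labelled *Adipo-HuR-/-* exceeded a control library, A8. It missed the threshold at a log2 fold change of -1.17 (SE 0.349; adjusted p = 0.128, edgeR), with adjusted p from 0.0257 to 0.440 over the alternative fits, and it was -0.68 without A12 and -1.86 without A7, A8 and A31. *Usp29*, a ubiquitin protease gene that starts 147 bases from *Peg3* on the other strand, ranged from 0.0474 CPM in A25 to 0.417 in A29 (log2 fold change 0.16, adjusted p = 0.922, edgeR; from -0.26 without A29 to 0.51 without A24 and A25). *Zim1*, a maternally expressed zinc finger gene next to them, ranged from 1.57 CPM (A12) to 2.88 (A7) in control and from 0.508 (A24) to 2.09 (A25) in the others, a log2 fold change of -0.78 (adjusted p = 0.359, edgeR; -0.22 without A7, A8 and A31).

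The cluster of the Prader-Willi and Angelman genes on chromosome 7 gave 6 members with counts. *Ndn* encodes necdin, which holds back brown preadipocytes, and was at 25.3, 22.5 and 20.5 CPM in control and 20.8, 16.6, 9.41, 15.1 and 12.4 CPM under the knockout label. Only A24 reached the control range, where it passed A12. Its log2 fold change, -0.62 (SE 0.228), was not past the threshold (adjusted p = 0.199, edgeR), and it was -0.41 without A7, A8 and A31 and -0.40 when scaled by totals. *Snrpn*, which encodes a spliceosome protein, was at 27.0, 24 and 16.3 CPM in the 3 control libraries, against 17.4, 15.0, 15.1, 20.8 and 14.3 CPM in the other 5. A7 and A8 were the highest and A12 lay among the libraries labelled *Adipo-HuR-/-*. The log2 fold change was -0.44 (SE 0.194; adjusted p = 0.280, edgeR). A7 and A8, high for *Snrpn*, were also those with the most muscle RNA (4073 and 2568 CPM of muscle markers), and the log2 fold change was -0.29 without A7, -0.22 with the muscle covariate or when scaled by totals, and 0.07 with A7, A8 and A31 left out.

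*Ube3a*, the ubiquitin ligase gene expressed from the maternal allele in neurons, was at 48.5, 29.5, 58.5 CPM (control) and 28.8, 35.0, 44.7, 36.3, 34.3 CPM (labelled knockout). A7 and A12 were the highest and A8 the second lowest of the 8 libraries, so that the groups overlapped (log2 fold change -0.35, SE 0.221, adjusted p = 0.465, edgeR; -0.57 without A8, -0.12 without A12, -0.15 when scaled by totals and -0.69 without A7, A8 and A31). The other members of the cluster were near the limit of detection. *Mkrn3*, a makorin gene known for the timing of puberty, ranged from 0.209 to 0.417 CPM (log2 fold change 0.44, adjusted p = 0.626, edgeR; 0.33 to 0.72 over the alternative fits), and *Peg12*, a gene of the FRAT family that binds GSK3, from 0.0418 CPM in A12 to 0.451 in A24. *Peg12* had a log2 fold change of 1.30 with a standard error of 0.631 (adjusted p = 0.335, edgeR), which was 0.81 without A24 and A25, 0.92 without A12, 1.93 without A7 and 2.77 without A7, A8 and A31. *Magel2*, a regulator of protein sorting, was at no more than 0.265 CPM (A29).

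In the cluster around *Peg10* on chromosome 6, *Sgce* encodes epsilon-sarcoglycan. It was at 15.5, 17.5 and 17.5 CPM in control and 15.8, 12.4, 12.1, 14.6 and 13.7 CPM under the knockout label. A24 was the only library labelled *Adipo-HuR-/-* to exceed a control library, A7. Not past the threshold, it had a log2 fold change of -0.29 (SE 0.144; adjusted p = 0.335, edgeR), and it was -0.06 when scaled by totals. *Peg10*, a retrotransposon-derived gene that starts 99 bases away on the other strand, ranged from 1.14 CPM in A26 to 2.59 in A7 and held its counts in 1 transcript of 6567 bases (log2 fold change 0.06, adjusted p = 0.942, edgeR; from -0.13 without A8 to 0.39 without A7). *Ppp1r9a*, the maternally expressed gene of neurabin, an actin-binding protein, ranged from 10.1 CPM in A8 to 24.6 in A26 (log2 fold change 0.16, adjusted p = 0.817, edgeR; from -0.06 without A26 to 0.46 without A7).

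*Blcap* had the highest level per length of the members, and it encodes a small protein lost in some bladder cancers. It was at 45.4, 44.0 and 45.0 CPM in the 3 control libraries, against 52.7, 47.4, 50.5, 40.9 and 50.7 CPM in the other 5. The control libraries were nearly equal, and A29 alone of the others lay below them (log2 fold change 0.11, SE 0.134, adjusted p = 0.723, edgeR; from 0.07 without A24 to 0.34 when scaled by totals). *Nnat*, a membrane protein gene on the other strand within an intron of *Blcap*, was at 4.24, 1.67, 20.1 CPM (control) and 10.2, 5.79, 5.02, 3.77, 15.9 CPM (labelled knockout). Values spread more than 10-fold within the control libraries alone. A12 and A31 were the highest and A8 the lowest, so the log2 fold change of -0.09 has a standard error of 0.699 (adjusted p = 0.960, edgeR), and it was 1.45 without A12, -0.43 without A7, -0.57 without A8, -0.50 without A31 and -1.72 without A7, A8 and A31.

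*Impact* encodes an inhibitor of the stress kinase GCN2. It was at 33.3, 17.2 and 57.7 CPM in control and 22.8, 19.2, 22.4, 13.2 and 19.2 CPM under the knockout label. A12 and A7 stood above the rest, and A8 lay among the libraries labelled *Adipo-HuR-/-*. With a log2 fold change of -0.90 (SE 0.322) it did not pass the threshold (adjusted p = 0.191, edgeR), and it was -0.39 without A12 (adjusted p = 0.626, edgeR) and -1.57 without A7, A8 and A31. The control libraries ranked A12, A7, A8 for *Impact*, as they did for *Ube3a*, and A12 was also the highest of the 8 libraries for *Peg3*, *Mest*, *Plagl1* and *Nnat*.

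*Slc38a4*, an amino acid transporter gene, was at 1.55, 0.582 and 0 CPM in the 3 control libraries, against 0.113, 0.0474, 0.0741, 0.0947 and 0.182 CPM in the other 5. The 3 highest values were those of A7, A8 and A31, the libraries with muscle RNA (4073, 2568 and 461 CPM of muscle markers). A12, the control library with little muscle RNA, had no counts. The part of muscle RNA in this difference was not tested. *Slc38a4* had 12 counts in A31, 5 in A26 and A29, 2 in A24 and 1 in A25, the last 2 libraries below the detection floor of 3 counts. It missed the threshold at a log2 fold change of -2.72 (SE 0.966; adjusted p = 0.186, edgeR), was -3.30 without A12 and then passed it (adjusted p = 0.0275, edgeR; 0.0275 to 0.921 over the alternative fits), was -1.40 without A7 and -0.32 in limma voom, and turned to 0.77 with the muscle score as a covariate. *Rasgrf1*, which encodes an exchange factor for Ras, ranged from 0.0627 CPM in A12 to 0.489 in A26, a log2 fold change of 1.18 (SE 0.635; adjusted p = 0.377, edgeR). For *Rasgrf1* it was 0.84 without A12, 2.20 without A7, 2.37 without A7, A8 and A31, and 1.82 with the muscle covariate. *Rasgrf1* had 3.20 counts in A8, 3 in A12, 3.05 in A24 and 3.01 in A25, about the detection floor of 3 counts.

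Ordered by mean level per length, the members differed between the groups in their order. In control the order ran from *Blcap* (30.7 ± 9.64, SD, n = 3) over *Snrpn* (15.3 ± 6.87), *Impact* (13.1 ± 8.22), *Sgce* (12.8 ± 2.86), *Ube3a*, *Cdkn1c*, *Igf2r*, *Nnat* and *Ndn* to *Peg3* (6.91 ± 3.78). *Igf2*, *Grb10* and then *Nap1l5* (2.80 ± 1.55) followed. From *Snrpn* to *Peg3*, neighbours differed by less than the SD of either. Under the knockout label it ran from *Blcap* (35.5 ± 5.59, SD, n = 5) over *Cdkn1c* (21.1 ± 4.60), *Ube3a* (13.4 ± 3.39), *Nap1l5* (12.5 ± 1.04), *Snrpn*, *Sgce* and *Igf2r* to *Nnat* (10.2 ± 6.18). From *Ube3a* to *Nnat*, neighbours differed by less than the SD of either, and *Impact* (7.48 ± 1.58) came next. Over all 8 libraries the median of the genes tested was 5.22, and 13 members were at or below 0.538.

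In another list of 56 imprinted genes, 50 had counts and 43 passed the filter. None was past the threshold by the quasi-likelihood test of edgeR, though 2 were without A8 (0.947% of all genes in that fit) and 1 without A12 (1.24%), 11 had an unadjusted p under 0.05 (17.0% of all genes did), and the groups did not overlap for 8 (11.5% of all genes), with 3 higher (5.37%) and 5 lower (6.09%). DESeq2's Wald test placed 3 of them past the threshold (3.76% of all genes) and edgeR's likelihood ratio test 2 (4.41% of all genes), and limma voom 0 (1.06%). The median log2 fold change was -0.17 (-0.11 without A12, 0.02 when scaled by totals and -0.32 with the muscle covariate), with 30 of 43 below 0 (7413 of 14851 over all genes). The smallest p-values were those of *Atp10a*, *Herc3* and *Copg2*. *Atp10a*, a phospholipid flippase gene next to *Ube3a*, was at 15.5, 4.51, 3.99 CPM (control) and 1.80, 2.37, 1.29, 2.24, 1.62 CPM (labelled knockout). A7 was far above A8 and A12, which were still above each library labelled *Adipo-HuR-/-*. The log2 fold change of -2.11 (SE 0.428) just missed the threshold (adjusted p = 0.0561, edgeR, and 0.000176 to 0.347 over the alternative fits). *Atp10a* passed in 6 of the 19 alternative fits, among them those without A8 (edgeR adjusted p = 0.0409) or A12 (0.0275). A7 also had the most muscle RNA (4073 CPM of muscle markers), and the log2 fold change was -1.20 without A7, -1.06 without A7, A8 and A31 and -1.47 with the muscle covariate.

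The nucleosome assembly protein family, to which *Nap1l5* belongs, carries histones to and from chromatin. Of 10 other family genes 9 were tested, and *Nap1l2* had no counts in any library. *Nap1l1*, the widely expressed member, was at 68.1, 46.4 and 71.4 CPM in control and 34.3, 25.3, 24.1, 28.6 and 34.1 CPM under the knockout label. It fell in the libraries labelled *Adipo-HuR-/-*, all 5 of which lay below all 3 control libraries. The means were 62.0 CPM and 29.3 CPM, with a log2 fold change of -1.08 (SE 0.187; adjusted p = 0.0407, edgeR). It was the only 1 of the 9 past the threshold (0.707% of all genes, 0.465% lower), and this call was lost in 11 of 19 alternative fits, among them the fits without A7 (edgeR adjusted p = 0.120), A12 (0.0702), A25 (0.116), A26 (0.0862), A29 (0.0998) or A31 (0.0633), with adjusted p from 6.72e-05 to 0.165 over all 19, whereas the log2 fold change stayed between -1.35 and -0.88. *Nap1l4*, itself an imprinted gene in some tissues, was between 121 and 137 CPM in all libraries, with the groups just apart and a log2 fold change of -0.12 (adjusted p = 0.676, edgeR). The next smallest p-values were those of *Tspyl4* (log2 fold change 0.59, adjusted p = 0.360, edgeR; 0.19 without A7, A8 and A31) and *Nap1l3* (-0.70, adjusted p = 0.510, edgeR; -0.45 without A26). Without overlap were 2 of the 9, *Nap1l1* and *Nap1l4*, both lower (11.5% of all genes, 6.09% lower). The median of the family was -0.12, which was -0.05 without A8, 0.05 without A12 and 0.11 when scaled by totals.

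Of 25 genes that set or keep imprints, 24 were tested and none was past the threshold by the quasi-likelihood test of edgeR. At an unadjusted p under 0.05 there were 4 of 24 (3 higher and 1 lower), close to the 17.0% of all genes. There were 2 without A7 (14.6% of all genes in that fit) or A12 (12.6%), and 7 when scaled by totals (20.1%). DESeq2's Wald test (3.76% of all genes) and edgeR's likelihood ratio test (4.41%) each placed 1 past the threshold, limma voom (1.06%) 0. The median log2 fold change was 0.12 (0.23 without A7, 0.00 without A8, 0.06 without A26, 0.34 when scaled by totals), with 18 of 24 above 0 (7438 of 14851 over all genes). *Ctcfl*, a CTCF paralogue known from testis, was at 5.21, 3.34 and 3.72 CPM in the 3 control libraries, against 5.70, 8.02, 12.3, 9.66 and 12.1 CPM in the other 5. Its groups were just apart, at A7 and A24, with a log2 fold change of 1.23 (adjusted p = 0.0771, edgeR; 0.00132 to 0.326 over the alternative fits), and it passed without A24 (0.0474). *Dnmt3l*, the cofactor of new methylation in germ cells, had -1.95 (adjusted p = 0.182, edgeR) from 1.49 and 0.390 CPM, which was -1.36 without A7 and -1.31 without A7, A8 and A31. *Dnmt3a*, the methyltransferase itself, had 0.61 (adjusted p = 0.184, edgeR) from 12.9 and 19.6 CPM, which was 1.06 without A7, A8 and A31. *Zfp57* was between 0.188 and 0.793 CPM, with overlapping groups.

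Of 16 genes of the insulin-like growth factor axis 13 were tested, and none was past the threshold by the quasi-likelihood test of edgeR. An unadjusted p under 0.05 was seen for 3 of 13, beside 17.0% of all genes. The count was 5 when scaled by totals (20.1% of all genes in that fit) and 2 with the muscle covariate (11.8%). DESeq2's Wald test (3.76% of all genes) placed 2 past the threshold, and edgeR's likelihood ratio test (4.41%) and limma voom (1.06%) 1 each. The median log2 fold change was 0.20 (0.13 without A7, 0.02 without A8, 0.32 without A12, 0.41 when scaled by totals, -0.04 with the muscle covariate and -0.27 without A7, A8 and A31). *Igf2bp2*, an RNA-binding protein of *Igf2* mRNA, was at 8.47, 4.58, 8.07 CPM (control) and 5.36, 3.23, 2.79, 2.41, 3.26 CPM (labelled knockout). A24 exceeded A8, and the other 4 libraries labelled *Adipo-HuR-/-* lay below every control library (log2 fold change -1.06, adjusted p = 0.112, edgeR; -1.77 from its top transcript alone). *Igfbp4*, a binding protein that withholds IGF, averaged 17.1 and 28.6 CPM (log2 fold change 0.74, adjusted p = 0.116, edgeR). The log2 fold change was 0.51 without A24 and A25 and 0.96 when scaled by totals. Its groups did not overlap, as for only 1 of the 13 genes (11.5% of all genes, 5.37% higher). *Igfbp3*, the main carrier in blood, averaged 7.82 and 14.2 CPM (log2 fold change 0.86, adjusted p = 0.233, edgeR).

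The part of muscle RNA in these differences was not tested beyond the fits given, and each fit without A7, A8 and A31 has A12 as its only control library. Genes that overlap on opposite strands, such as *Nap1l5* with *Herc3*, *Nnat* with *Blcap* and *Mest* with *Copg2*, and *Snrpn* with *Snurf* on the same strand, may share reads, which leaves their counts uncertain.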

How the data were processed

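For each library the authors deposited estimated counts of transcripts, not normalised, in which a read matching more than 1 transcript is shared out. Reads were mapped in CLC Genomics Workbench according to the study; the program behind the counts, and whether strand was used, are not given in the sources used here. Counts were summed by gene symbol and rounded. Before rounding, 79.1% of sums were within 0.02 of a whole number. Genes kept by edgeR's filterByExpr were scaled by TMM, then compared in the quasi-likelihood F-test (edgeR 4.0.16, limma 3.58.1, DESeq2 1.42.0, R 4.3.3), with Benjamini-Hochberg adjustment over all 14851 genes. The standard error is the size of the log2 fold change divided by the square root of F. The scripts were tested on simulated data. Other values used Python 3.11.15, numpy 2.4.6, pandas 2.3.3, scipy 1.17.1 and matplotlib 3.10.9. Levels per length used GENCODE M21 (98.6% of transcripts matched). No libraries of a group were alike within counting noise. The muscle score is the mean log2 CPM (prior count 2) of 20 muscle markers.

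Named genes were all members; values in every library were given, where analysed, for *Nap1l5*, members past the threshold or without overlap, the 8 with the highest level per length, and *H19*, *Meg3*, *Igf2*, *Igf2r*, *Dlk1*, *Mest*, *Grb10*, *Cdkn1c*, *Plagl1*, *Ndn*, *Peg3*, *Herc3* and *Elavl1*; and from each other list the genes past the threshold and the 3 with the smallest p. Transcripts were given for *Herc3*, *H13*, *Grb10*, *Mest*, *Meg3* and *Peg10* where at least 2 had a mean of 10 counts. Names outside this rule, the values of *Slc38a4* in every library, and the split by parental allele, were chosen after values were seen. The members and lists were chosen with earlier results of these data known. Alternatives were scaling by total counts or by size factors of DESeq2, the likelihood ratio test in edgeR, the Wald test in DESeq2, limma voom (quality weights), a minimum of 10 counts per library or none, each library left out, A24 and A25 left out, A7, A8 and A31 left out, only the top transcript of each gene, a covariate for muscle, and other thresholds. At 3 counts, the floor for detection, CPM before TMM lay between 0.0444 (A26) and 0.171 (A25); floors cover counting error only.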

Additional observations from a re-analysis of the deposited data

Results flagged for a closer look

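Dixon's ratio, the gap of the extreme library to its neighbour over the range of its group, was past the 95% critical value of 0.71 for 4 of 62 values examined (6.45%) in the 5 libraries labelled *Adipo-HuR-/-*. Chance flags about 1 in 20 groups. The sum of skeletal muscle markers was highest in A31, far from the other 4 libraries (ratio 0.957). The 2561-base *Mest* transcript was highest in A31 (ratio 0.756). The 2769-base *H13* transcript was lowest in A24 (ratio 0.718), and *Igf2bp2* was highest in A24 (ratio 0.712).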

How the results depend on the processing

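Over 19 alternative fits, 41 genes other than *Nap1l5* gave 763 values, of which 694 kept direction and side of the threshold, 11 lost the call (all *Nap1l1*), 21 gained it and 37 changed sign; 31 genes never changed sign. Of these 41, only *Nap1l1* was past the threshold by edgeR's quasi-likelihood test on all 8 libraries. For the others, keeping the side of the threshold meant staying uncalled, also in fits that called few genes in all. *Nap1l5*, given without a test, stayed between 1.75 and 2.46. Of the 24 members other than *Nap1l5*, 0 were past the threshold, and 2 were with DESeq2's Wald test, 2 with the likelihood ratio test, 0 to 1 without single libraries, 0 without A24 and A25, 0 without A7, A8 and A31, and 7 at unadjusted p. With *Nap1l5*, which chose the list and whose call is no result, these counts are 1, and 3, 3, 1 to 2, 0, 0 and 8. All genes past it (105) became 828, 655, 10 to 190, 5, 4 and 2531 in the same order, 15 with the muscle covariate and 16 with the top transcript; leaving libraries out leaves fewer samples to test, and otherwise the cause was not tested. Log2 fold changes changed sign as follows, and the cause was not tested. With total counts only: *Igf2r* 0.0905, *Nnat* 0.0915, *Slc22a18* 0.15, *Commd1* 0.20; the median of the 24 members other than *Nap1l5* became 0.09. With limma voom: *Grb10* -0.0669, *Peg10* -0.0223, *Nnat* 0.11, *Commd1* 0.0348. Over the fits without single libraries: *Grb10* -0.17 to 0.36, *Usp29* -0.26 to 0.45, *Peg10* -0.13 to 0.39, *Nnat* -0.57 to 1.45, *Slc22a18* -0.18 to 0.0316, *Ppp1r9a* -0.0572 to 0.46, *Commd1* -0.23 to 0.26. Without A24 and A25: *Peg10* -0.0524, *Slc22a18* 0.0281. Without A7, A8 and A31: *Snrpn* 0.0704, *Usp29* -0.10, *Slc22a18* 0.20, *Commd1* 0.28. With the muscle covariate: *Grb10* -0.0035, *Slc38a4* 0.77, *Commd1* 0.0076. With the top transcript: *Grb10* -0.0026, *Nnat* 0.0206. No paired analysis was made, since the groups share no replicate numbers. With A7, A8 and A31 out, the lone control library is assumed to vary like the others. The limits are 3 control libraries, the lower depth of A24 and A25, bulk tissue, unknown strand of counting, overlapping genes, labels that *Elavl1* does not check, and 13 members at low levels.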
